A study of Mus musculus with 3 samples.

Results

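Processed pseudogenes that reached at least 10 TPM (transcript abundance corrected for length and scaled to a fixed sum) in each of 3 chromatin RNA libraries are described here. Of the 9940 annotated genes whose transcripts are all of the processed pseudogene type, 108 met this minimum, which is 1.09% of the class, out of 55450 annotated genes in all. The minimum was set on the TPM values of these same libraries, so the levels below are descriptions and carry no test. The RNA came from the chromatin fraction of C57BL/6J mouse macrophages grown from bone marrow (BMDM) and was depleted of ribosomal RNA, per the labels. The cells of the 1 group had 100 ng/ml Lipid A, an activator of the receptor TLR4, for 12 h, then 12 h without it, and then 100 ng/ml Lipid A again for 30 min. The 3 biological replicates were made from separate biosamples that share 1 donor identifier, and the labels record neither age nor sex. Replicate 1 was made from 1 µg of RNA, replicate 2 from 250 ng and replicate 3 from 500 ng, so an effect of input cannot be told apart from one of replicate. No untreated cells and no other cell fraction were analysed here.

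A processed pseudogene is a copy of a messenger RNA that was reverse transcribed and inserted into the genome. It lacks the introns of its parent gene, usually has no promoter of its own, and diverges from the parent by mutation. Many lie within the introns of other genes, so RNA that covers the copy can come from the copy itself or from unspliced RNA of the gene around it. Genes that are abundantly transcribed in the germ line, such as those of ribosomal proteins, have left the most copies.

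The sequences that follow show how far the copies differ from their best-matching protein-coding gene. Reads of a copy and of that gene can be told apart by sequence only where the letters differ. They were taken from the transcripts of GENCODE release M21 (mm10), run 5′ to 3′ in the orientation of the copy, and capitals mark bases that differ from the coding transcript. Hmgb1, a DNA-binding chromatin protein, was matched by 6 of the 108 pseudogenes, and this family was chosen for display after its values were seen. The window is coding bases 7 to 81 of Hmgb1. The copies lie at chr3:95530418-95530492 (plus strand), chr10:22263287-22263361 (minus strand), chr6:49080982-49081056 (minus strand), chr9:104169731-104169805 (minus strand), chr3:22081035-22081109 (minus strand) and chr13:84281736-84281810 (minus strand).
Hmgb1: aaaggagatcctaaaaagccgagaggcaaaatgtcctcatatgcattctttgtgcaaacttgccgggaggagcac
Hmgb1-ps5: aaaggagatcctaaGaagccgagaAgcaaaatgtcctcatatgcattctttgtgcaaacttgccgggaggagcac
Hmgb1-ps8: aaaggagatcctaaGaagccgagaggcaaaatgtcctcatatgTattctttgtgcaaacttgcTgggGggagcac
Gm7890: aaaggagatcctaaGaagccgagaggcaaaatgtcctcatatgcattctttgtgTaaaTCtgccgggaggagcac
Hmgb1-rs16: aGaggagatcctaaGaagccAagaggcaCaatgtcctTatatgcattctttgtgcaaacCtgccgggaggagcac
Gm5842: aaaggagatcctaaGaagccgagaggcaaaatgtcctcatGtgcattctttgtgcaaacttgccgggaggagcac
Gm46432: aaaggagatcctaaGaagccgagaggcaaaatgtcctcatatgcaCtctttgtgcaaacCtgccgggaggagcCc
The copies differ from Hmgb1 at 2, 4, 4, 6, 2 and 4 of these 75 bases, in the order printed. The substitution A15G, counted from 1 at the start of the window, is present in 6 of 6 copies, and no other position differs in all of them.

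Pairs of 90 bases from 4 of the most abundant pseudogenes give examples of divergence in the same way. These windows and that of Hmgb1 are the first coding stretches of their length that aligned without a gap. They can be closer to the coding gene than the whole copy is, and the lowest identity among members was 66.1%. Gm20612 at chr9:45261055-45261144 (plus strand) is set against coding bases 1 to 90 of Rpl17, a protein of the large ribosomal subunit, and differs at 4 bases.
Rpl17: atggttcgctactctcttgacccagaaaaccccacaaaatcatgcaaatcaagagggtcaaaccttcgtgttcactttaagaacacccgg
Gm20612: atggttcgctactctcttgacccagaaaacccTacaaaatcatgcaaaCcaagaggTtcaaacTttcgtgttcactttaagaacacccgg
Gm17147 at chr6:65128824-65128913 (plus strand) is set against coding bases 293 to 382 of Nudt1, an enzyme that removes oxidised nucleotides, and differs at 15 bases.
Nudt1: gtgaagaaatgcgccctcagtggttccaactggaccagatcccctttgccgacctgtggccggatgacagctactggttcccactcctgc
Gm17147: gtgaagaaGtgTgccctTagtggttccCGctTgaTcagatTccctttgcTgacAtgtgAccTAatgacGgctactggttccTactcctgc
Gm31544 at chr13:120046606-120046695 (plus strand) differs at 1 base from coding bases 70 to 159 of Ctdsp1, a phosphatase that acts on the tail of RNA polymerase II.
Ctdsp1: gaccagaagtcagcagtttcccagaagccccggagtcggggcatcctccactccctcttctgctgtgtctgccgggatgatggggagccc
Gm31544: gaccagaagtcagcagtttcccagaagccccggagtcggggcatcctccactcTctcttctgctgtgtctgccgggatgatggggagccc
Gm16464 at chr7:104501841-104501930 (minus strand) differs at 0 bases from coding bases 1 to 90 of Ccnyl1, a cyclin-like gene, so no read from inside this window could be told apart by sequence.
Ccnyl1: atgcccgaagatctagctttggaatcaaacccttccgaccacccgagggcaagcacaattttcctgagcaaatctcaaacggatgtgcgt
Gm16464: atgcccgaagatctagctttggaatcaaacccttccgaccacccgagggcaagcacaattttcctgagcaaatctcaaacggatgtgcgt
The most abundant pseudogene, Gm47727, was not set against a coding gene here. Its closest coding match was BC004004 at 83.7% identity, with 3.46% of that transcript covered and 1 other gene within 2% of the score. The first 120 bases of Gm47727 at chr13:20827836-20827955 (plus strand) are printed alone.
Gm47727: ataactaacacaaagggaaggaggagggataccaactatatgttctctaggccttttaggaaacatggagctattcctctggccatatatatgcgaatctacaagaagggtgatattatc

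Total expected counts were 12532722, 18395358 and 18237730 in replicates 1, 2 and 3, and the 108 pseudogenes took 0.212%, 0.128% and 0.126% of them. They took 0.452%, 0.350% and 0.350% of the TPM. They also held 57.9%, 48.0% and 49.8% of all counts assigned to processed pseudogenes, of which 7502 were listed at 0 in every library. Macrophage markers (6 genes) summed to 889 to 979 TPM, those of T and B cells (3 genes, Cd3e at 0 throughout) to at most 0.26 TPM, of neutrophils and mast cells (3 genes, S100a8 and Elane at 0) to at most 0.08 TPM, and of stromal, endothelial and epithelial cells (3 genes, Epcam at 0) to 1.14 to 2.59 TPM.

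The levels of the pseudogenes spanned more than an order of magnitude. Mean TPM over the 3 libraries ran from 12.0 to 299 with a median of 24.5, and 70, 19 and 6 pseudogenes reached a mean of 20, 50 and 100 TPM. Gm47727, in an intron of Aoah, stood at 412, 189 and 294 TPM in replicates 1, 2 and 3, and its lowest library was above the highest library of every other member (the next highest single value was 175 TPM, for Gm18852 in replicate 1). Gm20612, the Rpl17 copy, stood at 173, 153 and 166 TPM, a mean of 164 ± 10.2 TPM (SD, n = 3). This copy is only 236 bases long, and its TPM rested on 90, 75 and 91 expected counts over effective lengths of 48.2, 30.7 and 36.9 bases, whereas Gm47727 had 1185, 662 and 1042 counts.

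Gm21370 and Gm31544, both matched to Ctdsp1, varied little between libraries. Gm21370 stood at 145, 112 and 139 TPM. Gm31544 stood at 95.4, 100 and 106 TPM, so the libraries of the pair did not overlap. Each lies over an exon of a gene on the other strand, Gm36161 (112 ± 19.6 TPM, SD, n = 3) and Gm21188 (162 ± 22.8 TPM), and only 35.2% and 2.43% of their 31-base words occur in no other gene's transcripts. Ctdsp1 itself was at 29.9 ± 3.85 TPM.

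Pseudogenes matched to interferon-inducible GTPases varied most among the leading members. Gm5970, matched to the GTPase gene Iigp1 and within an intron of Gm4951, stood at 158, 102 and 71.3 TPM. Iigp1 followed the same order at 509, 283 and 225 TPM, and so did Gm4951 at 67.05, 49.55 and 37.66 TPM. Gm18852, matched to Gvin1 and inside Gm4070, whose exons cover only part of it, stood at 175, 74.4 and 71.7 TPM, with replicate 1 apart from the other libraries. For Gm18852 only 0.898% of 31-base words are its own, and the authors' posterior SD of its count was 221, 210 and 163 next to 6369, 3950 and 3574 expected counts.

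**Figure D1:**
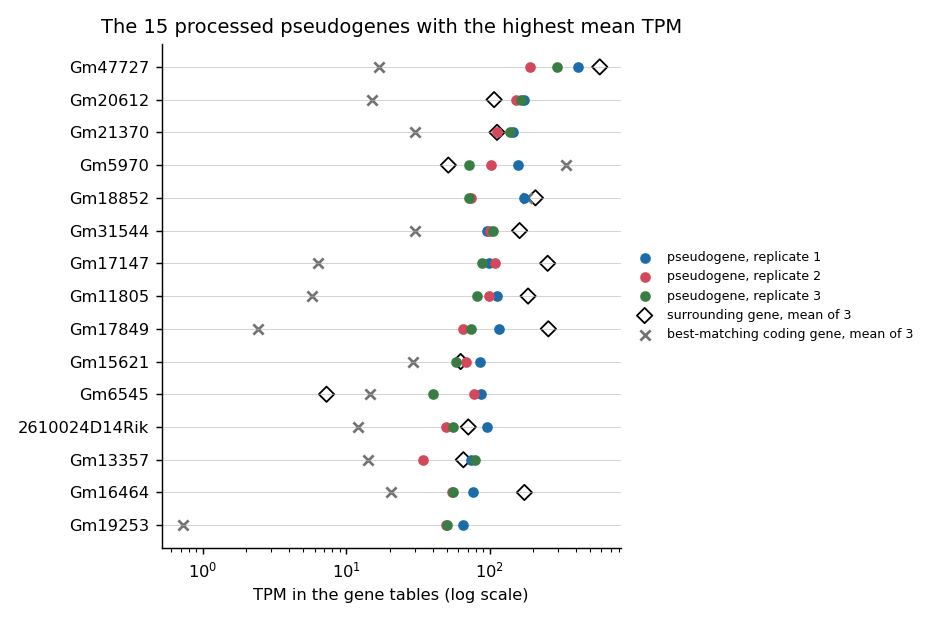
TPM (log scale) of the 15 pseudogenes with the highest mean, with 1 dot per library, a diamond for the mean of the surrounding gene and a cross for the mean of the best-matching coding gene. The cross lies left of every dot in all lines except those of Gm5970 and Gm18852, and Gm19253 has no diamond because it lies outside genes.

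Other leading members lie in introns of abundant coding genes and were below them. Gm17147, the Nudt1 copy, stood at 99.2, 109 and 88.0 TPM within Hpgds, the gene of a prostaglandin D synthase, which was at 253 ± 23.3 TPM (SD, n = 3). Gm11805, a copy of the chromatin protein gene Hmgb3, stood at 113, 98.6 and 81.8 TPM within Lyn, a Src family kinase gene at 185 ± 25.2 TPM. Gm17849, whose closest coding match was Ccnd3, a cyclin, at 67.9% identity, stood at 116, 65.5 and 74.1 TPM within Osbpl8 at 256 ± 35.9 TPM. In each of these 3 pairs the pseudogene was below the surrounding gene in every library. Gm17147 and Gm11805 lie on the strand opposite the surrounding gene, and Gm17849 on the same strand.

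Other leading pseudogenes were near the level of the gene around them. Gm15621, a copy of the cyclophilin A gene Ppia, stood at 85.3, 68.7 and 57.7 TPM within Rilpl2 at 57.0, 62.5 and 68.5 TPM, so the pair overlapped and moved in opposite order. Gm15621 lies on the strand opposite Rilpl2. 2610024D14Rik, matched to the ATP synthase subunit gene Atp5l, stood at 95.0, 49.4 and 55.1 TPM within Peli1, a ubiquitin ligase gene of TLR signalling, at 87.8, 66.7 and 58.1 TPM. Gm13357, matched to the prohibitin gene Phb, stood at 74.3, 34.0 and 78.7 TPM within Abi1 at 79.9, 50.8 and 65.6 TPM, with replicate 2 lowest for both. Gm16464, the Ccnyl1 copy, stood at 76.0, 54.2 and 55.0 TPM within Trim30d, which was higher at 174 ± 21.6 TPM (SD, n = 3). Gm6545 went the other way. It stood at 87.2, 77.6 and 40.3 TPM within A330040F15Rik at 9.09, 8.82 and 3.91 TPM, a mean log2 ratio of 3.23 ± 0.10 (SD, n = 3), and both had their lowest value in replicate 3.

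The abundant pseudogenes lay inside other genes more often than the rest of their class. Of the 108, 99 (91.7%) lay wholly inside a protein-coding or long noncoding gene on either strand, compared with 2592 (26.4%) of the 9832 other processed pseudogenes. The same strand as the surrounding gene accounted for 40 members (37.0%, compared with 10.1% of the others), and the opposite strand alone for 59 (54.6%, compared with 16.3%). Introns held 38 of the former and 56 of the latter. These shares describe a class chosen by level, and no test was made of them.

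**Figure D2:**
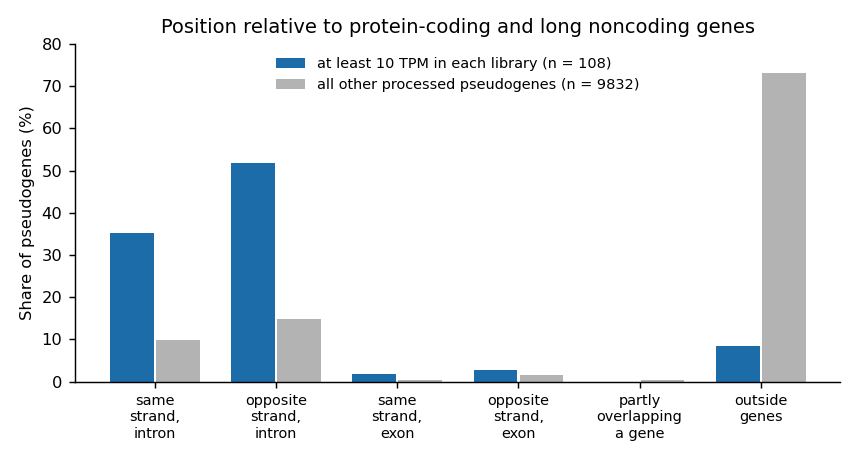
Share of pseudogenes (%) by position relative to protein-coding and long noncoding genes, for the 108 abundant members (blue) and the 9832 others (grey). Introns on the same and the opposite strand hold 35.2% and 51.9% of the members, and 73.1% of the others lie outside genes.

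The genes around the members were themselves abundant on chromatin. The 99 members lay in 95 distinct genes with a median of 60.5 TPM, compared with 0.19 TPM for the genes around the other processed pseudogenes, and 92 members had a surrounding gene of at least 10 TPM. The share of intronic pseudogenes that met the minimum was larger where the surrounding gene was at 50 TPM or more than where it was lower, on both strands. On the same strand it was 1 of 592 (0.169%) where the surrounding gene was under 1 TPM, 2 of 159 (1.26%) from 1 to 10 TPM, 15 of 174 (8.62%) from 10 to 50 TPM, 14 of 48 (29.2%) from 50 to 100 TPM and 6 of 24 (25.0%) from 100 TPM up. On the opposite strand the shares were 2 of 800 (0.250%), 2 of 287 (0.697%), 16 of 302 (5.30%), 16 of 73 (21.9%) and 20 of 46 (43.5%) over the same ranges. Outside genes, 9 of 7200 (0.125%) met it. The part of reads from the surrounding gene in these values was not tested, and whether counting used strand is not given in the sources used here, so reads from opposite strands may be shared.

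**Figure D3:**
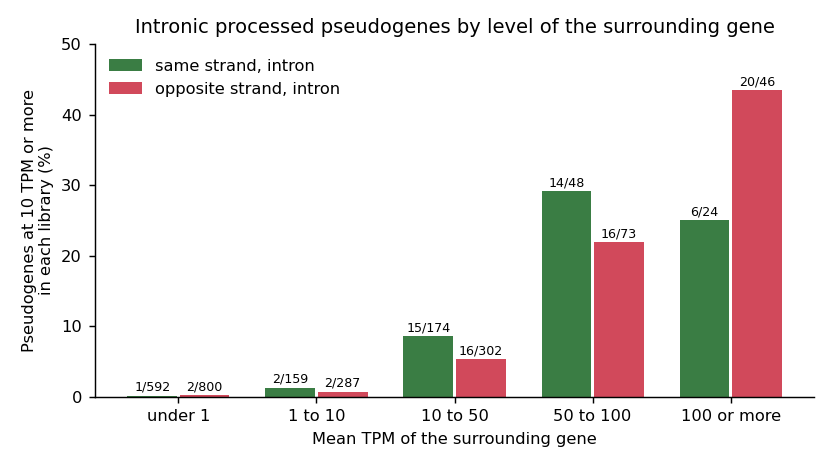
Share of intronic processed pseudogenes (%) at 10 TPM or more in each library, by mean TPM of the surrounding gene and by strand, with the number of members over the number of pseudogenes above each bar. Shares are at most 1.26% where the surrounding gene is under 10 TPM and at least 21.9% where it is at 50 TPM or more.

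Most members were below the gene around them. Of the 99, 78 had a lower mean TPM and 69 were lower in every library, and the median log2 difference was -1.29. It was -0.85 for the 38 in introns on the same strand and -1.62 for the 56 on the opposite strand. Every member had to reach the minimum TPM, so a wide gap below the surrounding gene could arise only where that gene was high. That wide gaps lay at such genes is therefore no finding, and the members that follow are examples of them. AC122821.1, matched to Rpl37, had a mean of 17.6 ± 1.44 TPM within Srrm2, a splicing factor gene at 437 ± 6.29 TPM (SD, n = 3 each), and Gm19244, matched to Rps27rt, had 33.0 ± 7.36 TPM within Herc6 at 402 ± 119 TPM. CT025731.2, matched to Rps6, had 40.7 ± 13.5 TPM within Xdh, the xanthine dehydrogenase gene, at 628 TPM. It was named for its surrounding gene after the values were seen. CT025731.2 lies on the same strand as Xdh, and AC122821.1 and Gm19244 on the strand opposite their surrounding genes. Across members, the correlation of log2 level with that of the surrounding gene was weak (Pearson r = 0.29, Spearman rho = 0.33, n = 99), and with that of the best-matching coding gene it was near 0 (r = -0.0063, rho = -0.030, n = 103). The points share their libraries, and these values are descriptions.

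In 3 members the surrounding gene was under 1 TPM. Gm15899 stood at 31.7, 31.1 and 30.1 TPM within Cbfa2t3, a corepressor gene at 0.093 TPM on average. Its sequence is identical over the aligned stretch to the actin-related gene Actr3 (320 ± 61.4 TPM, SD, n = 3), 0% of its 31-base words are its own, and the authors' posterior SD of about 5.68 counts was a large part of its 16.9, 15.7 and 17.1 counts. Gm13241 and Gm13245, matched to Cdv3 and the ribosomal stalk gene Rplp1, both lie in Gm26573, a gene at 0.030 TPM on average, and stood at 27.6, 23.7 and 24.3 TPM and at 12.3, 16.1 and 13.1 TPM. Of their 31-base words only 14.3% and 31.7% are their own, and Gm13245 rested on 8.69, 11 and 10 counts.

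Differences between libraries correlated more closely with those of the surrounding gene than with those of the coding match in each of the 3 pairs of libraries, over members of both strands. Between replicates 3 and 2, the log2 TPM difference of a member and that of its surrounding gene correlated with r = 0.65 (rho = 0.62, n = 95 pairs at 1 TPM or more), and with r = 0.10 (rho = 0.15, n = 93) for its coding match. The values were 0.45 and 0.13 between replicates 2 and 1, and 0.28 and -0.021 between replicates 3 and 1. With only members of at least 30 expected counts in every library, the 3 values were 0.73, 0.49 and 0.49 for surrounding genes (n = 68) and 0.19, 0.14 and 0.040 for coding matches (n = 70), in the same order. On the opposite strand alone, the value between replicates 3 and 1 was -0.036 over 54 members for the surrounding gene and 0.015 over 46 for the coding match, the reverse of the order over all members. Over those with 30 counts it was 0.28 (n = 35) and 0.054 (n = 33). The pairs share libraries and depth, and r is given as a description.

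**Figure D4:**
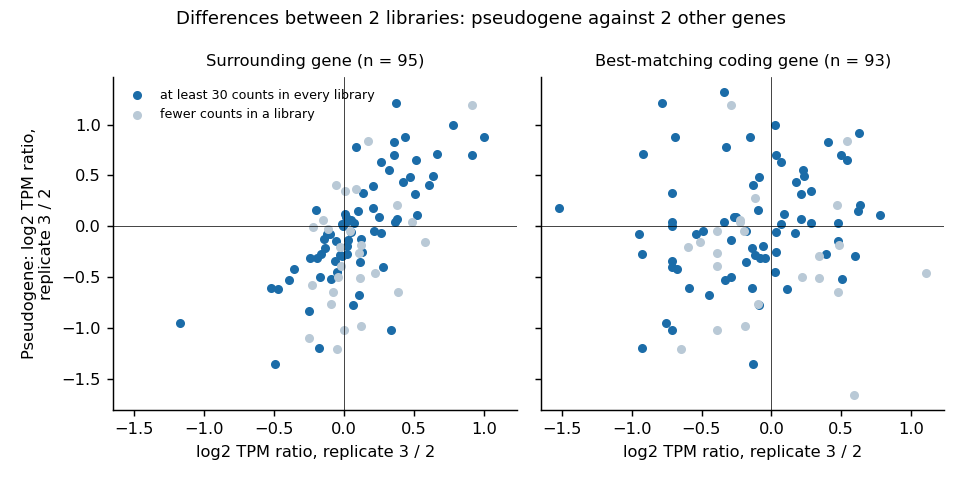
Log2 TPM ratio of replicate 3 to replicate 2 for each pseudogene (vertical axis) against the same ratio for its surrounding gene (left, n = 95) and its best-matching coding gene (right, n = 93), in log2 units. Points spread along the diagonal on the left (r = 0.65) and show little relation on the right (r = 0.10); pale points have under 30 expected counts in a library.

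Of the 4 genes that hold 2 members each, Gm26573 is described above and the other 3 follow. Gch1, the first enzyme of tetrahydrobiopterin synthesis, stood at 48.4, 21.4 and 40.4 TPM. Its members Gm49134, an Rpl7a copy on the opposite strand, and Gm18811, a Pabpc1 copy on the same strand, stood at 33.3, 19.5 and 44.4 TPM and at 28.5, 15.3 and 24.9 TPM, so replicate 2 was lowest for all 3. Gnaq, a G protein subunit gene at 51.3, 38.5 and 49.5 TPM, holds E030024N20Rik, a Ppia copy at 44.1, 23.0 and 37.5 TPM, and Gm10819, a Pebp1 copy at 12.7, 10.3 and 18.3 TPM, again with replicate 2 lowest. Both copies lie on the strand opposite Gnaq. Atg7, an autophagy gene, was level at 54.3, 55.7 and 56.2 TPM, while its members Gm44331 and Gm19040 stood at 27.3, 20.0 and 21.3 TPM and at 13.9, 10.9 and 11.3 TPM, each highest in replicate 1.

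Replicate 1 was highest for 69 of the 108 members (63.9%, against 39.5% of the 5464 genes at 10 TPM or more in every library). Replicate 2 was highest for 22 (20.4%, against 36% of those genes) and replicate 3 for 17 (15.7%, against 24.5%). Of the 95 surrounding genes, 60 (63.2%) were also highest in replicate 1. The coefficient of variation over libraries had a median of 22.2% for members and 13.4% for the 5464 genes.

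The 5 members with the highest coefficient of variation were Polr2k-ps, Gm18852 (described above), Gm6341, AC122306.1 and Gm43215. Polr2k-ps, a copy of an RNA polymerase subunit gene and the shortest member at 175 bases, stood at 13.4, 43.8 and 19.1 TPM, a coefficient of variation of 63.5%, from 2, 6 and 3 counts over effective lengths of 8.58 to 13.8 bases. Gm6341, an Rpl27 copy within Fchsd2, stood at 39.9, 13.0 and 25.8 TPM from 85.5, 32 and 66 counts, and Fchsd2 was also lowest in replicate 2 at 148, 92.2 and 158 TPM. Gm43215, a Sumo2 copy within Gsap, stood at 43.6, 21.1 and 18.9 TPM from 28, 13 and 13 counts. AC122306.1 stood at 31.9, 33.6 and 10.7 TPM from 9.27, 8.98 and 3.25 counts. The lowest coefficient of variation was that of Gm15899, at 2.54%, though none of its 31-base words are its own and its posterior SD was large, as given above. In the second table, described below, Gm15899 stood at 161, 88.4 and 36.7 TPM, so it was not steady there.

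The best-matching coding genes were often less abundant than the members. A match over at least 50% of the pseudogene was found for 106 of the 108, with 85 distinct coding genes and a median identity of 90.3% (66.1% to 100%), compared with 88.3% for the other processed pseudogenes. Of these, 75 pseudogenes had a higher mean TPM than the match, 61 were higher in every library and 23 lower in every library, and the median log2 difference was 0.68. In 12 cases the match was under 1 TPM. These include the matches Rps27rt (0.18 TPM), AC117239.2 (0 TPM), AF366264 (0 TPM) and Gm10053 (0.58 TPM). For the members matched to these, another gene scored within 2% of the match, so the low value need not be that of the parent. Others of the 12, such as the match Prdx3, had no such near tie. The minimum of 10 TPM was asked of the pseudogenes and not of the matches, so the direction of these counts is in part fixed by the choice of members. The match is a best score and not proof of origin, and 14 members had another gene within 2% of that score.

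Ribosomal protein genes were the best match of 28 members, 1.14% of the 2460 processed pseudogenes with such a match, next to 1.09% for the whole class. Their median was 22.0 TPM, against 15.7 TPM for their matches. Chromatin protein genes were matched by 8 members of 466 (1.72%), of which 6 are the Hmgb1 copies. Respiratory chain and ATP synthase genes were matched by 5 of 220 (2.27%), and genes with symbols of translation factors by 4 of 170 (2.35%), which include Gm12188, a copy of the translation repressor gene Eif4ebp1. RNA-binding protein genes were matched by 4 of 263 (1.52%), and Hnrnpa3, the match of 3 of them, was itself at 228 TPM. Chaperones and cyclophilins gave 2 of 211, glycolysis 1 of 325 (Gm26931, a Gapdh copy), proteasome and ubiquitin 1 of 170, the cytoskeleton 1 of 174 and ferritin 0 of 30, while 52 had a match whose symbol has none of the prefixes that define these groups. The groups were set by symbol alone, so their counts can miss related genes or include others, as with Eif4ebp1. The 52 include genes with related roles, such as Usmg5 of the ATP synthase, the splicing genes Tra2b and Snu13, and the match of the chaperonin copies Hspe1-ps2 and Hspe1-ps5.

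The Hmgb1 copies printed above are 6 of 155 processed pseudogenes matched to Hmgb1, and the rest of the 155 were below the minimum. Hmgb1 stood at 9.08, 14.9 and 9.08 TPM, near the minimum that each copy had to reach, so copies above it are no finding. Hmgb1-ps5, within the cathepsin S gene Ctss, stood at 71.2, 58.5 and 28.9 TPM and did not overlap Hmgb1 in any library. Only 17.6% of its 31-base words are its own. Hmgb1-ps8, within Gm26740, stood at 59.9, 46.6 and 46.6 TPM. Gm7890 within Malsu1, on the opposite strand, stood at 19.5, 19.6 and 24.5 TPM, again above every library of Hmgb1. The other copies overlapped it, with Hmgb1-rs16 at 22.6, 15.7 and 12.4 TPM within Dnajc13, Gm5842 at 12.8, 17.9 and 13.6 TPM within Tbl1xr1, and Gm46432 at 12.7, 14.1 and 14.5 TPM within Tmem161b. Like Gm7890, Gm5842 and Gm46432 lie on the strand opposite their surrounding genes, whereas Hmgb1-ps5, Hmgb1-ps8 and Hmgb1-rs16 lie on the same strand. The order of the copies by mean was not exactly that of identity (98.2% for Hmgb1-ps5, 97.0% for Gm5842 and 88.3% for Hmgb1-rs16). Nor was it exactly that of the surrounding genes, with Dnajc13 at 106 ± 5.29 TPM and Ctss at 93.6 ± 18.9 TPM. The lowest copies by mean, Gm5842 and Gm46432, did lie in the lowest surrounding genes, Tbl1xr1 at 16.8 ± 2.67 TPM and Tmem161b at 25.7 ± 3.59 TPM. A relation to either was not tested.

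**Figure D5:**
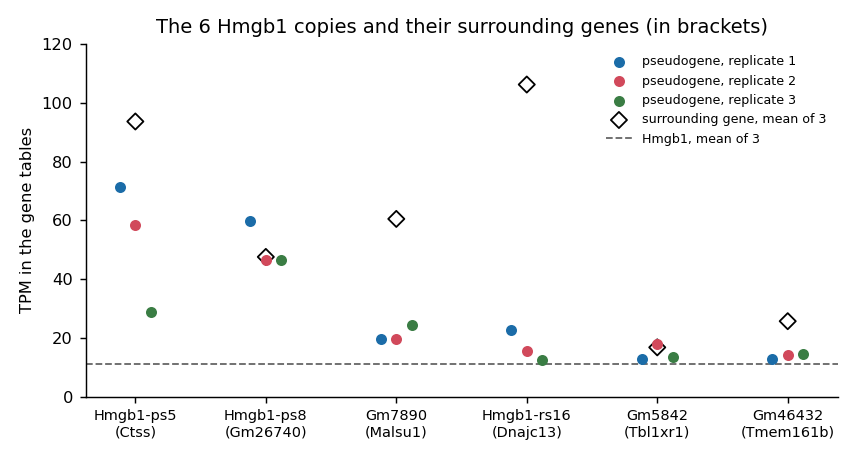
TPM in the gene tables of the 6 Hmgb1 copies in each library (dots), with the mean of the surrounding gene (diamond; its name in brackets) and the mean of Hmgb1 (dashed line, 11.0 TPM). Hmgb1-ps5 and Hmgb1-ps8 stand above the other 4 copies in all 3 libraries, and every dot lies above the line.

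Outside genes, 9 members remained. Gm19253, a copy of the mitochondrial ribosomal gene Mrps36 (0.72 ± 0.29 TPM, SD, n = 3), stood at 65.3, 49.5 and 50.4 TPM and starts 701 bases past the end of Gpnmb, a lysosomal membrane glycoprotein gene at 1054 TPM on the same strand. Gm6548, a copy of the elongation factor gene Eef1a1, stood at 33.4, 34.8 and 40.3 TPM and lies 608 bases past Eif2ak2, the double-stranded RNA-activated kinase gene at 222 TPM. Gm12250, at 30.3, 24.8 and 16.3 TPM, lies 8174 bases past Mrpl22 at 2.44 TPM. It has 100% of its words to itself. The closest coding match of Gm12250 was 9930111J21Rik2 at 131, 118 and 78.2 TPM, with 67.2% identity and 2 other genes within 2% of the score. Gm11425, an Rpl12 copy with 1.71% of words of its own, stood at 48.1, 34.1 and 33.1 TPM. Gm19026, Gm13238, Gm10557, Gm9845 and AC122306.1 had means from 21.7 to 33.8 TPM. Gm9845 has 0% of words of its own and is identical over the aligned stretch to Cflar transcripts, a caspase-8 inhibitor gene at 457 ± 145 TPM.

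Read support differed widely between members. The median of the mean expected counts was 72.8, 77 members had at least 30 counts in every library, and 8 had under 10 in a library. For 64 members the authors' lower bound of TPM was itself at least 10 in every library. The median share of own 31-base words was 78.8% (84.6% for the other processed pseudogenes), with 45 members at 90% or more and 15 under 20%. The authors' posterior SD of the count was 0 in every library for 78 members (72.2%), and for 240 of 370 (64.9%) other processed pseudogenes with at least 10 counts in every library. It was above 10% of the count in a library for 5 members. Members were mostly short, with a median length of 460.5 bases, and 105 (97.2%) had a single exon, compared with 90.3% of the others.

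A second table was made directly from the reads and assigned more of them, with 19621376, 32772265 and 30792817 estimated counts in total. Gm47727 had 2524 counts in replicate 1 there, next to 1185 in the gene table. In it 94 of the 108 members were at 10 TPM or more in each library (87%, against 97.1% of the 5464 genes), among 315 processed pseudogenes (3.17%) that met this minimum there. It was higher than the gene table in each library for 56 members (51.9%, against 61.2%) and lower in each for 36 (33.3%, against 23.1%). A difference of at least 2-fold in each library was seen for 8 members upward (7.41%, against 7.21%) and 1 downward (0.926%, against 1.48%). The median log2 difference (second table minus gene table, with 0.1 TPM added to each value) was 0.93 for the 20 members under 300 bases and 0.043 for the longer ones.

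The 5 largest positive differences came from members of different kinds. Gm19244 within Herc6 stood at 170, 90.9 and 89.7 TPM in the second table, next to 41.5, 28.8 and 28.7 TPM in the gene table. Gm12529, a copy of the complex I subunit gene Ndufa5 within Ptbp3, stood at 89.4, 93.8 and 50.5 TPM, next to 25.9, 38.3 and 17.9 TPM. AC122821.1 within Srrm2 and the sequence-sharing Gm15899 and Gm9845 followed, with mean log2 differences of 1.36 ± 0.25, 1.37 ± 1.03 and 1.44 ± 0.32 (SD, n = 3 each). Among the largest negative differences, AC122306.1 stood at 12.3, 7.35 and 0.060 TPM in the second table. Gm10557, whose best coding match Cdh11 was at 0.11 TPM, stood at 11.7, 9.55 and 8.39 TPM next to 18.7, 17.8 and 28.7 TPM. Gm20111, an Rpl35a copy within Hmbox1, Hspe1-ps5 within Sp3 and the Hmgb1 copy Gm5842 had mean log2 differences of -0.99 ± 0.34, -0.76 ± 0.09 and -0.70 ± 0.15. The Hmgb1 copy Hmgb1-ps5 stood at 46.8, 34.5 and 18.7 TPM in the second table, in replicate 3 below Gm7890 at 24.9 TPM. The order of these copies thus differed between the tables in that library.

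Near the minimum, the 3 members with the smallest lowest value were Gm47255 (10.19 TPM), AC126438.4 (10.17 TPM) and Gm26931 (10.15 TPM), and the closest pseudogenes left out were Gm26528 (9.97 TPM), Gm20302 (9.92 TPM) and Gm12926 (9.90 TPM). These 6 lie in introns of Cbl, Fam234a, Fam193a, Gm26740, Pign and Macf1. Gm12926, an Rps14 copy in Macf1, stood at 9.90, 13.5 and 27.6 TPM, a higher mean than that of any of the 3 just inside.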

How the data were processed

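The authors deposited, for each library, a gene table of expected counts and TPM with posterior SD and bounds, per the file headers, in the layout that RSEM writes, and a transcript table of estimated counts and TPM in the layout that kallisto writes. The deposited text files name mm10 and annotation release M21, transcriptome alignments for the gene table and the reads themselves for the second. For the aligner, versions and strand setting: not given in the sources used here. Both count reads against annotated transcripts only, so a read from an intron that covers a pseudogene can be assigned to it. TPM of genes close in length to a fragment rests on very short effective lengths: 23, 33 and 30 members had under 100 bases in replicates 1, 2 and 3.

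Spike-in, phiX and numbered rows that name no gene were left out of the count of annotated genes and of the totals of the second table. Totals of the gene tables were taken over all rows, so shares in the 2 kinds of table have unlike totals. The second table was summed per gene. Coding matches were found with blastn 2.17.0 (word size 11, e-value 1e-05, at least 50% of the pseudogene covered), which recovered 99% of 200 simulated copies at 5% and at 15% of bases mutated. The 34 members under 85% identity are more diverged than these simulated copies, so that rate does not cover them. The simulated copies held substitutions only, and each was longer than the median member of 460.5 bases. The rate therefore does not cover shorter members or those with gaps either. Words were compared with all other genes' transcripts. Named genes were the 15 highest means, the 5 largest differences between tables in each direction, the 5 largest coefficients of variation, 3 on each side of the minimum, and their surrounding and matched genes; others are marked or stand for a group. The members and lists were chosen with earlier results of these data known. No test was made, because the members were chosen on these values and there is 1 group; SDs over libraries may be partly technical. Python 3.11.15, numpy 2.4.6, pandas 2.3.3 and matplotlib 3.10.9 were used.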

Additional observations from a re-analysis of the deposited data

How the results depend on the processing

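The number of members was 256 with a minimum of 5 TPM, 43 with 20 TPM, 315 in the second table, 77 with at least 30 counts and 118 to 134 with a library left out. Members' median TPM was 28.1 in the second table (23.4 in the gene tables, averaging the 3 library medians) and their share of TPM 0.496% (0.384%). The median log2 difference between tables, 0.15 averaged over libraries, was 0.36 from counts scaled per library (CPM) and reversed to -0.020 for members with 30 counts; the former uses no length and the latter 77 members. The count of members 2-fold lower in the second table, 1, was 0 at 4-fold and 1 to 2 with a library left out. Inside genes, 40 on the same strand became 99 on either strand. The median log2 ratio to the surrounding gene went from -0.81 to -1.01 on the same strand and from -1.45 to -1.94 on the opposite strand with the second table, the latter an alternative chosen after seeing the data; the cause was not tested. Own words of 50 bases had a median of 94.1% (78.8% for 31). The other alternatives for these results kept direction and stayed within the spread between libraries or within 1.5 times. The TPM of 28 named members moved beyond that spread in the second table for 18, upward for 11 and downward for 7. Words of the whole genome were not run. No paired analysis was possible because there is 1 group. Intervals of short members rest on few counts.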
